A study of Caenorhabditis elegans with 39 samples.

Results

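The Alg1A time course from 20 to 30 h consists of 11 of the 39 small RNA libraries of a Caenorhabditis elegans series, 1 library for each hour, chosen by the labels' genotype and hour, with the 18 and 19 h libraries left out for the composition of their reads. The series measured microRNAs (miRNAs) in total RNA of whole animals, and its title concerns phosphorylation of the Argonaute protein ALG-1. The 3 genotypes were Alg1A, Alg1E and N2, the last labelled wild type, all on the N2 background, with 13 hourly libraries each. Larvae were grown at 25 degrees and hours count from the plating of synchronized L1 larvae. Alg1A and Alg1E are described as Alg1 mutants, with no word on what the letters A and E stand for and no other allele or agent named. Alg1A was read against N2 and against Alg1E, each with 11 libraries over the same 20 to 30 h. No label gives a replicate, culture or batch. The p-values of fitted courses below therefore measure the spread between hourly libraries around the fit, a spread that may be technical. Permutation p-values set a correlation with hour against those after shuffling the same libraries over the hours.

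miRNAs are cut from hairpin precursors, and 1 of the 2 arms of the hairpin is usually kept in an Argonaute protein, where it guides repression of target mRNAs, while the other arm is degraded. ALG-1 is 1 of the main miRNA Argonautes of the worm. The heterochronic miRNAs lin-4, let-7 and their relatives time the fates of larval cells: lin-4 acts early through lin-14 and lin-28, miR-48, miR-84 and miR-241 act on hbl-1, and let-7 acts late through lin-41.

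The 11 libraries held 2516263 to 3893182 miRNA reads, with a median of 2892326. Reads without an annotated feature took 25.3 to 43.5% of a library. Neither depth nor that share moved with hour (Pearson r of -0.10 and -0.24, permutation p of 0.765 and 0.486, 11 libraries). The Alg1A libraries of 18 and 19 h were left out: they held 4472517 and 1245377 miRNA reads, with 20.2 and 59.2% of reads without a feature, and miR-1-3p took 3.5 and 1.5% of their miRNA reads, against 6.56 to 12.3% in the 11 libraries. Levels are read counts scaled by library size (CPM) with TMM, and a change with hour is a slope in log2 per hour from edgeR's quasi-likelihood test with Benjamini-Hochberg adjustment, called at an adjusted p under 0.05.

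The most read miRNAs were miR-58a-3p, miR-70-3p, miR-52-5p, miR-1-3p and miR-81-3p, which together took 42.1 to 48.4% of the miRNA reads. Tissue markers were present in every library: miR-1-3p, of muscle, at 65810 to 138986 CPM, miR-60-3p, of the intestine, at 20405 to 39751 CPM, and the neuronal miR-124-3p at 159 to 254 CPM. The neuronal lsy-6-3p stood at 31.7 to 75.7 CPM and miR-791-3p at 5.64 to 10.8 CPM. In whole animals, fewer cells of a type and less RNA per cell cannot be told apart.

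Between 20 and 30 h a small set of miRNAs rose steeply and a larger set moved by less than 2-fold. Of 241 miRNAs tested, 53 changed with hour, which is 22%: 35 rose (14.5%) and 18 fell (7.47%), and 81 had an unadjusted p under 0.05. Among the called miRNAs, 21 rose and 2 fell by more than 2-fold over 10 h. The median slope of all tested miRNAs was 0.00 log2 per hour. Scaling by RLE size factors or by total counts moved that median by -0.15 and -0.22 log2 over 10 h. The split of called miRNAs then became 24 higher and 29 lower under RLE, and 21 higher and 39 lower under total counts. Under all 3 scalings 39 miRNAs were called, 21 higher and 18 lower, and none of the 53 changed sign. Without the 21 h library 33 miRNAs were called, without the 30 h library 31, and with the 18 and 19 h libraries added 85.

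**Figure D1:**
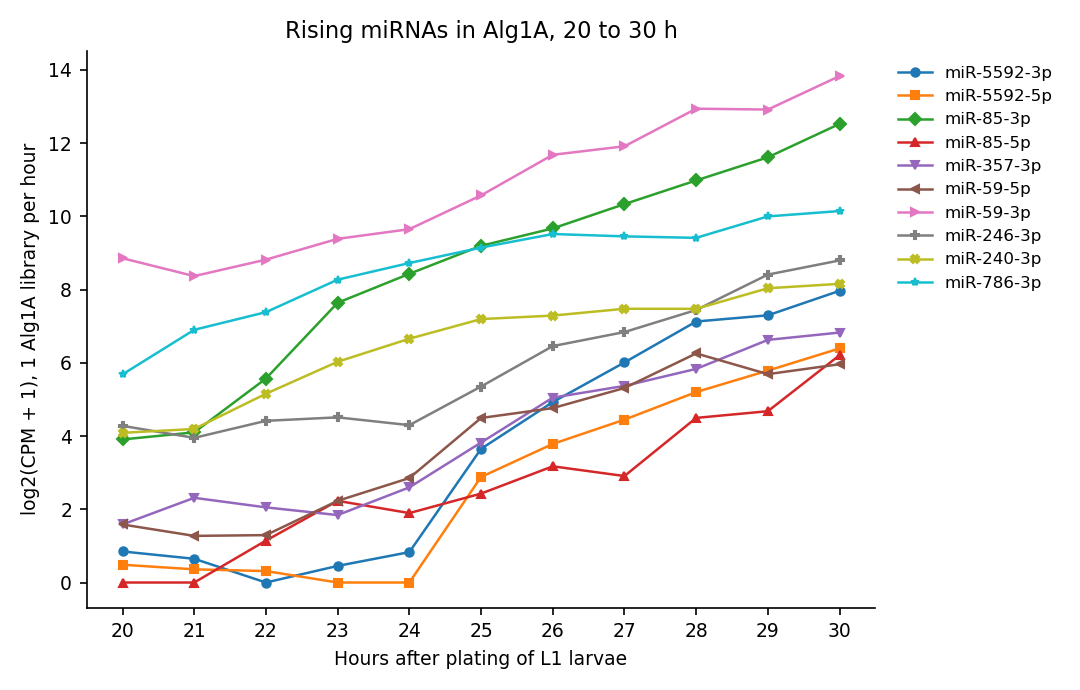
Level of the 10 miRNAs with the steepest called rises in Alg1A, as log2(CPM + 1), against hours after plating, with 1 library per point. miR-85-3p and miR-786-3p climb from the first hours, whereas both arms of miR-5592 stay near 0 until 24 h.

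miR-85-3p had 14.0, 16.2, 46.5, 198, 344, 585, 812, 1288, 2017, 3126 and 5884 CPM at successive hours from 20 to 30 h. Every hour was higher than the one before it. The slope was 0.85 log2 per hour (SE 0.06, adjusted p = 2.05e-07, edgeR). The minor arm of a hairpin is the one with fewer reads summed over all 39 libraries. Here that arm, miR-85-5p, was listed at 0 reads at 20 and 21 h and reached 72.9 CPM at 30 h (slope 0.73). The hairpin lies on chromosome II at 8393553 to 8393658, plus strand (WBcel235, which is ce11), inside an intron of F49E12.8 on the opposite strand.

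miR-59-3p became one of the more abundant miRNAs over the same hours. It had 462, 329, 450, 667, 801, 1519, 3278, 3851, 7846, 7717 and 14546 CPM from 20 to 30 h, flat until 22 h and highest in the last library. The slope was 0.56 log2 per hour (SE 0.04, adjusted p = 2.05e-07, edgeR). Its minor arm miR-59-5p had a slope of 0.63 and stood at 1.4 to 2.0 CPM from 20 to 22 h. The hairpin lies between genes on chromosome IV at 11309154 to 11309253, minus strand.

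miR-5592 switched from near absence to 249 CPM at 30 h for its 3p arm. miR-5592-3p had 2, 2, 0, 1 and 2 reads from 20 to 24 h, then 29, 99, 195, 322, 438 and 642 reads from 25 to 30 h. All libraries from 25 h on were above all libraries before it. The fitted slope of 1.11 log2 per hour (SE 0.09, adjusted p = 7.32e-07, edgeR) rests on those few early reads. The annotation holds 2 overlapping miR-5592 hairpins on opposite strands, so the reads could not be assigned to 1 of them.

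The neighbours miR-240 and miR-786, which lie 32 bases apart on the X chromosome and are known from mutants for their part in the defecation rhythm of the intestine, rose from the first hours. miR-786-3p had 50.4, 118, 166, 308, 422, 565, 731, 699, 680, 1020 and 1129 CPM from 20 to 30 h, with most of the climb before 26 h. miR-240-3p had 16.0, 17.3, 34.6, 64.2, 99.9, 145, 155, 177, 177, 261 and 284 CPM. Both courses flattened between 26 and 28 h, and the slopes were 0.39 and 0.41 log2 per hour (SE 0.05 and 0.04, adjusted p = 2.63e-05 and 9.00e-06, edgeR).

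miR-246-3p, a miRNA associated with lifespan, and miR-357-3p rose late. miR-246-3p stayed at 14.5 to 21.8 CPM from 20 to 24 h and had 39.8, 86.7, 113, 173, 339 and 443 CPM from 25 to 30 h (slope 0.52, SE 0.04, adjusted p = 7.32e-07, edgeR). miR-357-3p was at 2.0 to 5.1 CPM up to 24 h and at 112 CPM at 30 h (slope 0.65, SE 0.04, adjusted p = 2.05e-07, edgeR). The hairpin of miR-358 lies 206 bases from that of miR-357 on chromosome V, and its arm miR-358-3p rose too (slope 0.85), at a mean of 9.17 CPM.

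Of 247 hairpins 241 were found in the annotation, and 142 of these had an arm tested, of which 41 (28.9%) had a called arm. Of 55 pairs of tested hairpins within 10 kb on the same strand, 4 had a called arm in both members and 13 in 1 member. Many of the pairs came from the mir-35 to mir-41 hairpins, none called. Whether near hairpins shared calls more often than others was not tested. mir-240 with mir-786, and mir-357 with mir-358, rose together, and mir-228 and mir-790 fell together across a gap of 4299 bases. The pair of mir-80 and mir-90, 8619 bases apart, moved in opposite directions, with miR-80-3p rising and both arms of miR-90 falling.

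The falls were shallow. The 10 steepest called falls among miRNAs of at least 10 CPM had slopes of -0.10 to -0.07 log2 per hour. They were miR-791-5p, miR-229-3p, miR-4813-3p, miR-90-5p, miR-790-5p, miR-1022-5p, miR-61-5p, miR-234-3p, lsy-6-3p and miR-254-3p. miR-229-3p had 1501, 1333, 1277, 1297, 1236, 1135, 730, 848, 1109, 719 and 702 CPM from 20 to 30 h, with the 28 h library above its neighbours (slope -0.10, SE 0.02, adjusted p = 0.00274, edgeR). miR-234-3p had 1307, 1550, 1451, 1180, 1137, 1139, 1075, 969, 730, 1054 and 938 CPM, lowest at 28 h (slope -0.07, SE 0.02, adjusted p = 0.0125, edgeR).

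lsy-6-3p, which sets the left-right asymmetry of a pair of taste neurons, had 64.4, 75.7, 56.4, 52.8, 53.6, 41.8, 45.4, 40.0, 49.1, 31.7 and 51.5 CPM. Its highest values were at 20 and 21 h and its lowest at 29 h. The slope was -0.07 log2 per hour (SE 0.02, adjusted p = 0.0422, edgeR), and the call was lost in 8 of the 11 fits that each left out 1 library, with adjusted p up to 0.151. miR-229-3p, miR-4813-3p and miR-234-3p kept their call in each of those fits. The call was lost in 5 of the 11 for miR-90-5p and miR-790-5p, in 3 for miR-791-5p and miR-254-3p, and in 2 for miR-1022-5p and miR-61-5p. Of the 3 listed neuronal miRNAs 1 was called, lsy-6-3p, beside 22% of all miRNAs. The slope of miR-124-3p was -0.03 (adjusted p = 0.290) and that of miR-791-3p was -0.01 (adjusted p = 0.800, edgeR).

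**Figure D2:**
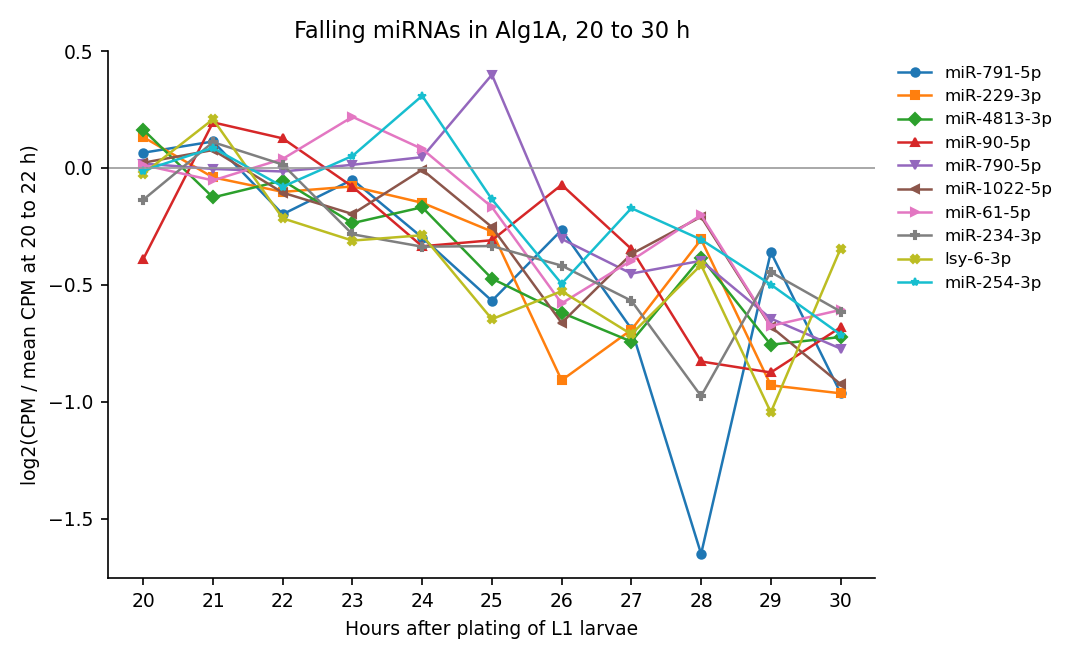
Level of the 10 steepest called falls in Alg1A, as log2 of CPM over the mean of 20 to 22 h, against hours after plating, with 1 library per point. All 10 lie under 0 from 26 h on, miR-790-5p peaks at 25 h with 204 CPM before it falls, and miR-791-5p dips at 28 h to 10.3 CPM.

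Several heterochronic miRNAs rose in the first 5 hours. Over 20 to 30 h let-7-5p and miR-84-5p rose, 2 of 6 listed, and none fell, beside 14.5% rising and 7.47% falling of all miRNAs. let-7-5p had 519, 808, 2716, 8002, 11918, 17683, 14024, 14540, 9441, 13104 and 15594 CPM from 20 to 30 h. It climbed until 25 h and was then level, with a dip at 28 h. The slope was 0.38 log2 per hour (SE 0.12, adjusted p = 0.0351, edgeR). Leaving out the library of 20, 21, 22 or 27 h, each in turn, gave adjusted p between 0.0564 and 0.103. For miR-84-5p the slope was 0.06 (adjusted p = 0.0295), with an adjusted p of 0.0664 under RLE, 0.0729 under total counts and up to 0.136 in the 3 of 11 fits without 1 library that lost the call (edgeR).

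A slope over all 11 hours understates such a course, so the first and the last 6 libraries, which share the 25 h library, were also fitted apart, a choice made after the courses had been seen. From 20 to 25 h, 24 of 238 miRNAs changed (10.1%), 22 higher (9.24%) and 2 lower (0.84%). From 25 to 30 h, 27 of 245 changed (11%), 24 higher (9.8%) and 3 lower (1.22%), and 8 miRNAs were called in both periods. The median slope of all miRNAs was 0.01 in the first period and 0.02 in the second.

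In the first period 4 of the 6 heterochronic miRNAs rose and none fell, beside 9.24 and 0.84% of all miRNAs. The 4 risers were let-7-5p at 1.11 log2 per hour (SE 0.09), miR-237-5p at 0.19, miR-241-5p at 0.19 and miR-48-5p at 0.16. In the second period none rose, let-7-5p had a slope of -0.05 (SE 0.05), and lin-4-5p fell at -0.14 (SE 0.04, adjusted p = 0.0254, edgeR). lin-4-5p stood at 33661 CPM at 25 h, its highest hour, and at 20773 CPM at 30 h, its lowest. miR-84-5p was called in neither period, at 0.06 in both.

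The mir-35 family is needed in the embryo. Over 20 to 30 h 0 of its 8 members had a called slope (median 0.08), beside 22% of all miRNAs. A bend was called for 2 of 8, miR-36-3p and miR-37-3p, beside 10.4% of all miRNAs. From 20 to 25 h 6 of 8 rose (median 0.31), beside 9.24% of all miRNAs. From 25 to 30 h 0 of 8 were called, beside 11% of all miRNAs, and the median was -0.12. The hairpins mir-35 to mir-41 lie together on chromosome II between 11537608 and 11538404, so these members cannot be counted as separate results. miR-36-3p, whose bend was called (adjusted p = 0.0411, edgeR), had 315, 275, 420, 605, 792, 831, 789, 595, 615, 462 and 615 CPM. It was lowest at 21 h, highest at 25 h, and at the end still above the first 3 hours. miR-41-3p, not called, jumped between 43.9 and 283 CPM with no steady course, and members of a family this alike can share reads in the counting.

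**Figure D3:**
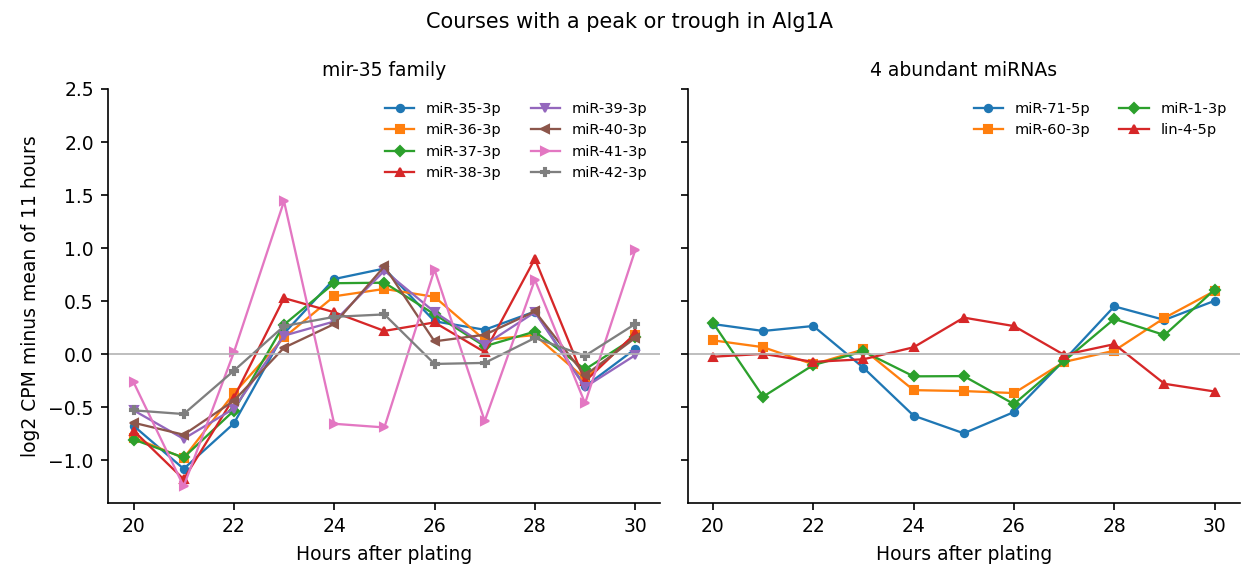
Courses with a turn in Alg1A, as log2 CPM minus each miRNA's mean over the 11 hours, against hours after plating, with 1 library per point. Most mir-35 family members (left) are lowest at 20 and 21 h and highest near 25 h, and miR-71-5p, miR-60-3p and miR-1-3p (right, chosen with lin-4-5p after their values were seen) have their lowest value at 25 or 26 h, though the bend of miR-1-3p was not called.

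Abundant miRNAs with a low point in mid course included miR-71-5p and miR-60-3p, whose bends were called. miR-71-5p, known for extending lifespan, had 24770, 23672, 24456, 18611, 13614, 12131, 13941, 19566, 27801, 25442 and 28832 CPM. It was lowest at 25 h, falling at -0.23 log2 per hour before (adjusted p = 0.00957) and rising at 0.27 after (adjusted p = 0.00262, edgeR). The intestinal miR-60-3p rose at 0.20 and the muscle miR-1-3p at 0.18 in the second period, and neither was called in the first. The bend of miR-1-3p missed the threshold (adjusted p = 0.0928, edgeR). The minor arm miR-235-5p had the reverse course, with 90.4 CPM at 25 h against 14.0 CPM at 22 h and 12.4 CPM at 30 h.

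Bends were tested directly with the quadratic and cubic terms of hour. They were called for 25 of 241 miRNAs (10.4%), with 56 at an unadjusted p under 0.05. By arm, they were called for 14 of the 96 minor arms tested and for 11 of the 131 major arms. Of the 25, 7 also had a called slope, 9 were highest at 30 h, and 9 were highest at 22 to 24 h. All 9 of those early peaks were minor arms. Whether bends or early peaks were more frequent among minor than major arms was not tested. The count of called bends fell to 9 without the 24 h library, 12 without 27 h, 14 without 26 or 29 h and 16 without 23 or 30 h.

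The strongest bend was that of let-7-3p, the minor arm of let-7. It had 9.60, 75.9, 288, 522, 440, 188, 108, 107, 70.7, 190 and 314 CPM from 20 to 30 h. It peaked at 23 h, 2 hours before let-7-5p reached its own highest value, sank until 28 h and climbed again (adjusted p = 4.93e-05, edgeR). At 20 h it rested on 24 reads and at 23 h on 1415.

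The courses most like that of let-7-3p over the 11 hours, by Pearson correlation, were those of miR-237-3p (0.92), lin-4-3p (0.89), miR-250-3p (0.88) and miR-241-3p (0.85), all from the same 11 libraries. miR-237-3p had 17.6, 28.1, 60.3, 72.7, 51.3, 31.1, 38.0, 33.2, 24.6, 40.3 and 57.4 CPM (adjusted p for the bend = 0.00857, edgeR). lin-4-3p had 3.20 CPM at 20 h, 40.6 at 23 h, 6.18 at 27 h and 15.5 at 30 h (adjusted p = 0.0137, edgeR). Both peaked at 23 h and were low at 27 or 28 h, as let-7-3p was. Their partners lin-4-5p and miR-237-5p were highest at 25 and 26 h.

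**Figure D4:**
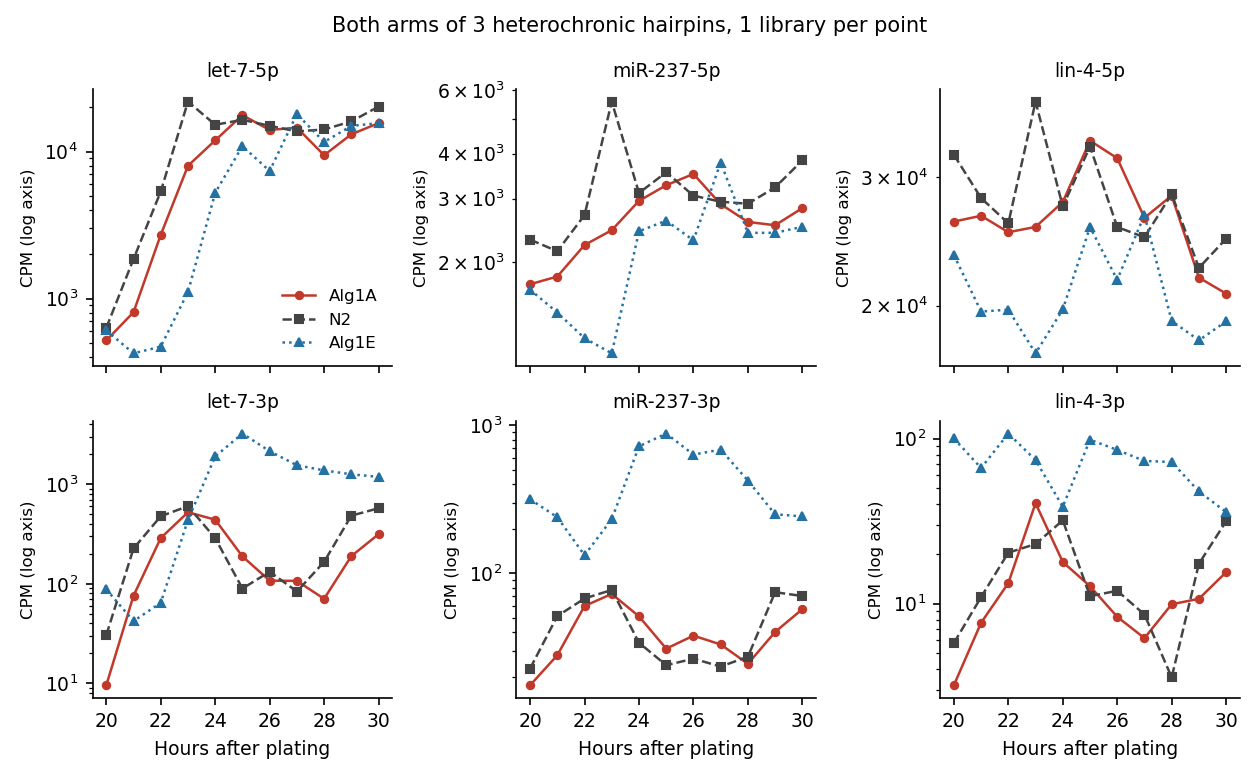
Level in CPM, on log axes with a scale of its own in each panel, of the major arms (top) and minor arms (bottom) of let-7, miR-237 and lin-4 against hours after plating in Alg1A, N2 and Alg1E, with 1 library per point. In Alg1A and N2 the 3 minor arms peak at 23 or 24 h, and in Alg1E they lie higher in most libraries.

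Across hairpins the slopes of minor and major arms were correlated, but the arms did not move alike in every hairpin. Over the 96 hairpins with both arms tested, the slopes of minor and major arm had a Pearson correlation of 0.93 and a Spearman correlation of 0.57, both across hairpins of the same libraries. At least 1 arm was called in 29 hairpins. In 11 of these both arms were called, all with the same sign, in 6 the minor arm alone and in 12 the major arm alone. For let-7 the slope was 0.01 in the minor arm and 0.38 in the major arm. Slopes of opposite sign, minor arm first, were -0.10 and 0.01 for miR-229, 0.09 and -0.03 for miR-51, and 0.09 and -0.09 for miR-4813. Of 96 minor arms tested 13 rose (13.5%) and 4 fell (4.17%), and of 131 major arms 20 rose (15.3%) and 13 fell (9.92%), beside 14.5 and 7.47% of all miRNAs.

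The ratio of minor to major arm did not pass the threshold for any of 93 hairpins (0%, limma, with 7 at an unadjusted p under 0.05). The smallest p was that of miR-240, where the log2 ratio had a slope of -0.17 per hour (SE 0.05, adjusted p = 0.21, limma). With a prior count of 5 in place of 0.5, 3 hairpins were called, all lower. The share of minor arms in the reads of the 96 hairpins with both arms tested lay between 1.71 and 2.27%, highest at 22 h and lowest at 28 h. Its correlation with hour was -0.55 by Pearson (permutation p = 0.0839, 0.336 adjusted over 4 measures of the libraries) and -0.44 by Spearman (permutation p = 0.182, 11 libraries). Without the libraries of 20 and 30 h, the farthest from the median hour, Pearson's r was -0.74 (permutation p = 0.0251).

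Members of other families were mostly not called. The abundant mir-58 family had 3 of 4 members called higher, miR-80-3p, miR-81-3p and miR-82-3p, with slopes of 0.05, 0.05 and 0.06. Under RLE only miR-82-3p was called (adjusted p = 0.0435), and under total counts 0 of the 4 were, with adjusted p of 0.0918, 0.179 and 0.0587 for miR-80-3p, miR-81-3p and miR-82-3p (edgeR). In the mir-75 family 1 of 2 members rose, miR-75-3p, and in the mir-87 family 1 of 2 fell, miR-233-3p. Of all miRNAs tested 22% had a called slope. Counting the listed arm of each hairpin, none of the 22 members of the mir-51, mir-64, mir-44, mir-2 and mir-72 families had a called slope. Among their other arms, miR-51-3p rose (0.09), and miR-229-3p and miR-61-5p fell as given above. Of 7 miRNAs on a list for lifespan and stress 1 rose over 20 to 30 h (14.3%, beside 14.5% of all miRNAs), miR-246-3p. From 25 to 30 h 3 of the 7 rose, miR-246-3p, miR-71-5p and miR-239b-5p, beside 9.8% of all miRNAs. miR-71-5p had fallen from 20 to 25 h, and its slope over 20 to 30 h was 0.02 (adjusted p = 0.716, edgeR).

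The difference in slope, Alg1A minus N2, asked whether the course of the mutant ran apart from that of the wild type. It was called for 0 of 262 miRNAs (0%) by edgeR, with 9 at an unadjusted p under 0.05, and for 0 by DESeq2. The median 95% half-width of a difference was 0.106 log2 per hour. miR-85-3p had a slope of 0.85 in Alg1A and 0.86 in N2, a difference of -0.0045 (95% interval -0.19 to 0.18). miR-59-3p had a slope of 0.56 in Alg1A and 0.57 in N2 (difference -0.01, -0.19 to 0.16). let-7-5p had a slope of 0.38 in Alg1A and 0.25 in N2, with a wide interval from -0.23 to 0.49. A test of any difference in the shape of the course, a spline by genotype, called 0 as well, with 27 at an unadjusted p under 0.05, and the lowest adjusted p, 0.0698, was that of miR-251 and miR-60-3p.

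The hour at which each riser first reached 0.5 of its own mean level at 28 to 30 h gave a description of timing. Among 21 risers with slopes over 0.1, it was later in Alg1A than in N2 for 7, the same for 7 and earlier for 7. Its median was 27 h in Alg1A and 25 h in N2. Both arms of a hairpin counted singly, and a riser already at that level in the first library was given 20 h. For let-7-5p the hour was 23 h in Alg1A and 23 h in N2. At 23 h let-7-5p stood at 8002 CPM in Alg1A and at 21868 CPM in N2, the highest hour of N2. Each value rests on 1 library. The 23 h library of N2 had the lowest TMM factor of its 11 libraries, 0.761. It also had their lowest shares of reads in miR-1-3p, 5.51%, and in minor arms, 1.31%. let-7-3p peaked at 23 h in both, at 522 CPM in Alg1A and 601 CPM in N2.

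**Figure D5:**
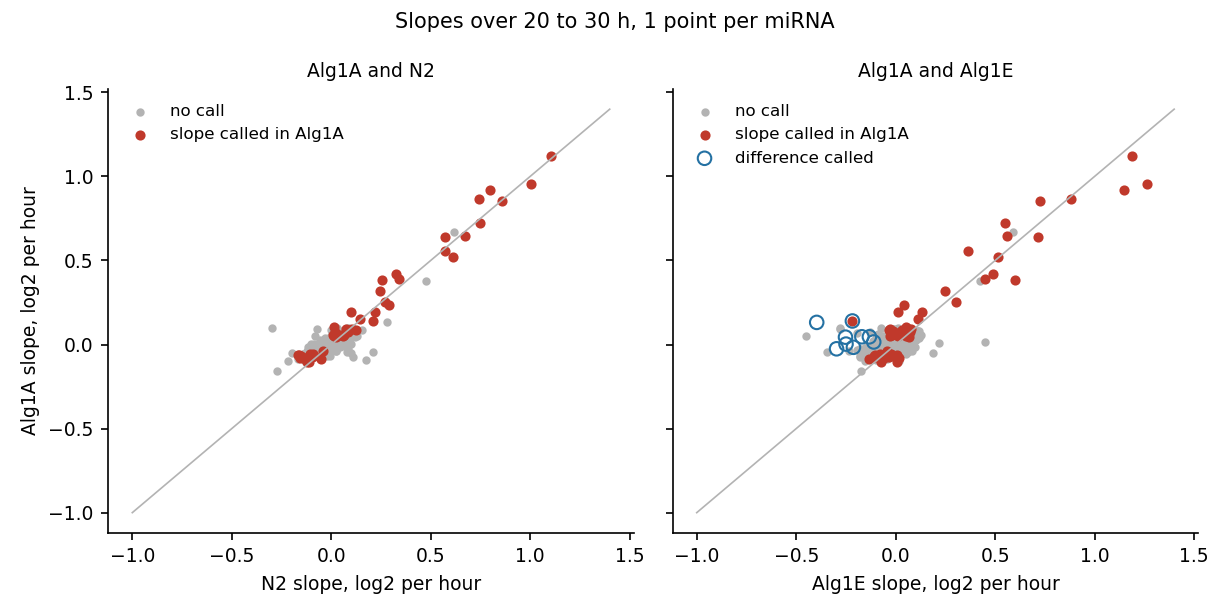
Slope over 20 to 30 h in Alg1A (vertical axis) against that in N2 (left) and Alg1E (right), in log2 per hour, with 1 point per miRNA and the line of equal slopes. Red points had a called slope in Alg1A, and the 9 blue circles mark the called differences, all above the line against Alg1E and none against N2.

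Against Alg1E, 9 of 262 slopes differed (3.44%), with 41 at an unadjusted p under 0.05, and all 9 were higher in Alg1A: miR-247-5p, miR-62, miR-355-5p, miR-797-3p, miR-1020-5p, miR-76-3p, miR-8206-3p, miR-79-3p and miR-239b-3p. In each the slope in Alg1E was negative. miR-62, a miRNA spliced from an intron, had 4762, 3370, 3467, 4036, 2793, 2713, 2978, 2989, 4951, 3159 and 4589 CPM in Alg1A, and 6993, 3497, 5490, 5139, 1430, 2559, 1284, 482, 1643, 1662 and 1312 CPM in Alg1E. In Alg1E every library from 24 h on was lower than the 4 before it, which was not so in Alg1A. The slope was 0.00 log2 per hour in Alg1A and -0.25 in Alg1E (difference 0.25, SE 0.06, adjusted p = 0.0183, edgeR).

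miR-79-3p, which acts in the epidermis, stood at 12461 to 23101 CPM in Alg1A, with its highest values at 28 and 30 h. In Alg1E it stood at 2379 to 14683 CPM, with the lowest at 27 h. The slope was 0.05 in Alg1A and -0.13 in Alg1E (difference 0.18, SE 0.05, adjusted p = 0.0399, edgeR). In 10 of 22 fits without 1 library of either genotype miR-79-3p lost its call, with adjusted p up to 0.207. The 9 calls became 5 when libraries were matched by hour, 1 under total counts, 1 with the 2 genotypes alone and 67 with the 18 and 19 h libraries added. They also depended on single libraries: 0 were called without the 30 h library of Alg1A, 3 without that of 21 or 28 h, and 1 without the 20 h library of Alg1E, while 14 were called without the 24 h library of Alg1E. Reads without a feature took 35.8 to 67.0% of the 11 Alg1E libraries, against 25.3 to 43.5% in Alg1A, and the part of that difference in the slopes was not tested.

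The shape test called 15 miRNAs between Alg1A and Alg1E, among them let-7-3p (adjusted p = 0.0159), lin-4-3p (0.0104) and miR-237-3p (0.0375, edgeR). let-7-3p had 9.60, 75.9, 288, 522, 440, 188, 108, 107, 70.7, 190 and 314 CPM in Alg1A, and 87.8, 42.2, 64.4, 437, 1895, 3219, 2139, 1548, 1372, 1255 and 1183 CPM in Alg1E. The peak lay at 23 h in Alg1A and at 25 h in Alg1E. Among the reads of the 96 hairpins with both arms tested in Alg1A, minor arms took 1.71 to 2.27% in Alg1A, against 7.23 to 8.88% in Alg1E. miR-237-3p was highest at 23 h in Alg1A and 25 h in Alg1E, but lin-4-3p at 23 h in Alg1A and 22 h in Alg1E. let-7-5p first reached 0.5 of its late level at 23 h in Alg1A and at 25 h in Alg1E, and the shape test gave an adjusted p of 0.0610 for it (edgeR). Among the 21 risers with slopes over 0.1, that hour was later in Alg1E than in Alg1A for 8, the same for 8 and earlier for 5. The median of that hour was 25 h in Alg1E and 27 h in Alg1A.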

How the data were processed

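Per the labels' protocols, the QIAseq miRNA Library Kit turned total RNA into small RNA libraries. The submitters' processing notes name cutadapt 2.3, Bowtie 1.2.2, SAMtools 1.9, HTSeq and the build ce11; the sources used here do not give settings, strand use, annotation or the handling of molecular identifiers, so reads may include PCR copies and near-identical miRNAs may share reads. The deposited values are whole-number counts per mature miRNA made by the authors, not normalized, for 437 entries, of which 386 had a read in the 11 libraries. Library sizes and tests exclude the 5 HTSeq summary entries; ambiguous reads took at most 0.111% of a library.

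Scaling used TMM over the 33 libraries of 20 to 30 h, and filterByExpr set the miRNAs tested. edgeR 4.0.16 (R 4.3.3) fitted a linear slope with 9 residual degrees of freedom, quadratic and cubic terms, and slopes by genotype over the 33 libraries. limma 3.58.1 tested arm ratios with a prior count of 0.5 (arms with a mean of at least 10 reads), and library trends used 100000 permutations. All tests were two-sided, and the scripts were tested on simulated data. Alternatives covered scaling, filters, DESeq2 1.42.0, libraries and the shape of the course.

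Named were listed developmental, tissue and most read miRNAs, the 10 steepest called rises and falls with at least 10 CPM, the 8 smallest p-values of a called slope difference and the 4 smallest of bends. Others named were chosen after their values were seen: miR-239b-3p, miR-358-3p, miR-51-3p, miR-228, miR-90-3p, miR-71-5p, miR-235-5p, miR-80-3p, miR-82-3p, miR-75-3p, miR-233-3p, miR-251, miR-239b-5p, lin-4-3p, miR-250-3p, miR-241-3p. The members and lists were chosen with earlier results of these data known. Positions come from the Ensembl annotation of WBcel235. At these depths 10 CPM rests on more than 10 reads, and counting error is only part of the spread.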

Additional observations from a re-analysis of the deposited data

Results flagged for a closer look

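The slope differences called between Alg1A and Alg1E, 9 in number, are listed because the same contrast with hour differed between the genotypes by a test of the difference itself. Alg1A minus Alg1E was 0.53 log2 per hour for miR-239b-3p, 0.36 for miR-1020-5p and 0.30 for miR-247-5p. It was 0.27 for miR-797-3p, 0.25 for miR-62 and 0.22 for miR-8206-3p. It was 0.20 for miR-76-3p, 0.18 for miR-79-3p and 0.13 for miR-355-5p. miR-239b-3p stood at 0.40 to 4.63 CPM in Alg1A, so its value rests on few reads.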

How the results depend on the processing

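The number of miRNAs called for a slope, 53 as reported, was 85 with the 18 and 19 h libraries, 24 for 20 to 25 h alone and 27 for 25 to 30 h alone, and 31 to 60 when 1 library was left out. With the share of reads without a feature as a covariate it was 40, 28 higher and 12 lower. A natural spline of hour, which tests for any change, called 78, and 37 of these were among the 53. Bends, 25 as reported, came to 38 under total counts and 9 to 28 with 1 library left out. Slope differences with Alg1E, 9 as reported, came to 1 under total counts, 67 with the 18 and 19 h libraries, 1 with the 2 genotypes alone, 5 with hour as a factor, 15 with a spline, and 0 to 14 with 1 library of either genotype left out. Differences with N2 stayed at 0 under every alternative run. Arm ratios gave 3 with a prior count of 5 and 0 to 1 with 1 library left out. The correlation of the minor-arm share was -0.744 without 20 and 30 h, and -0.671 to -0.445 with 1 library left out. Among named values called in the reported fit or in the alternative, signs turned for miR-790-5p (0.0611) and miR-254-3p (0.00890) in 20 to 25 h. They also turned for let-7-5p (-0.0481) and lsy-6-3p (0.0147) in 25 to 30 h, and for miR-58a-3p against Alg1E with a spline (-0.0431). For single named miRNAs, 1616 values kept their side of the threshold with 1 library left out, 69 lost a call and 9 gained one. Values without a call could change sign, as the lin-4-5p slope did, from -0.0245 to 0.00156. The causes of these changes were not tested beyond the libraries removed. The labels give no replicate numbers; libraries match across genotypes through the hour alone, and that matched fit is the one with hour as a factor. With 1 library per hour, the 95% half-width of a slope difference with N2 had a median of 0.106 log2 per hour.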
